A study of Mus musculus with 12 samples.

Results

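The genes described here set the resting potassium conductance of heart cells: 6 inward rectifier channel genes, Kcnj2, Kcnj3, Kcnj5, Kcnj8, Kcnj11 and Kcnj12, and 1 tandem-pore potassium channel gene, Kcnk3. They were taken by name and make up 7 of the 38293 gene identifiers in the deposited table. All 7 of 7 had enough reads to be tested. Expression was measured by RNA sequencing of embryonic mouse heart ventricles at E15.5.

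Of the 4 genotypes, the first was wild type (WT). The triple heterozygote carried 1 copy each of Mib1 R530X, an early stop allele of an E3 ubiquitin ligase needed for Notch ligand signalling, of Asxl3 M1415V, and of Apcdd1 V150I; the study's design text gives the Asxl3 allele as M1361V. The Cre control had 1 floxed Mib1 copy and Tnnt2-Cre, which recombines floxed alleles in cardiomyocytes under the cardiac troponin T promoter. The Mib1 mutant had Mib1 R530X on one chromosome, floxed Mib1 on the other, and Tnnt2-Cre. No genotype apart from WT had an undisturbed Mib1 pair in every cardiomyocyte. The stop allele does not need Cre and is present in every cell of the Mib1 mutant and the triple heterozygote, so the mutant differs from its control outside the cardiomyocytes too. Cre control and WT differ in the Cre transgene as well as in the floxed allele. Each genotype had 3 pools of 4 pairs of ventricles. Libraries held 10103548 to 22157720 expected counts, the largest being triple heterozygote replicate 2, and the other 11 held at most 14774121.

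Inward rectifiers pass potassium more easily into the cell than out of it and hold the membrane near the potassium equilibrium potential. Kcnj2 and Kcnj12 encode the pore subunits of the strong inward rectifier current of ventricular myocytes. Kcnj3 and Kcnj5 encode the GIRK subunits that assemble into the channel opened by G protein beta-gamma subunits when acetylcholine or adenosine reaches the heart, a current known mainly from atrium and pacemaker tissue. Kcnj8 and Kcnj11 encode the pores of ATP-sensitive channels, which need a sulfonylurea receptor as a partner. Kcnk3 encodes TASK-1, an acid-sensitive background channel that is open across the voltage range.

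The promoters of the GIRK pair are shown because 1 of these 2 partner subunits, Kcnj3, was lower in the Mib1 mutant and the other did not pass the test. Both are the 250 bases before the RefSeq start on GRCm38.p6, written 5′ to 3′ on the gene's strand, at chr2:55435720-55435969 (plus) for Kcnj3 and chr9:32344345-32344594 (minus) for Kcnj5. Capitals mark letters that match a searched motif.
Kcnj3: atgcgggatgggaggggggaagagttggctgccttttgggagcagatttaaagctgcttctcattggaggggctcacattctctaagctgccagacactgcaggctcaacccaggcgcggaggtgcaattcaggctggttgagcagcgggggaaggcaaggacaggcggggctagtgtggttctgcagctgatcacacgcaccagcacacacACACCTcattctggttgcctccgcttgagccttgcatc
Kcnj5: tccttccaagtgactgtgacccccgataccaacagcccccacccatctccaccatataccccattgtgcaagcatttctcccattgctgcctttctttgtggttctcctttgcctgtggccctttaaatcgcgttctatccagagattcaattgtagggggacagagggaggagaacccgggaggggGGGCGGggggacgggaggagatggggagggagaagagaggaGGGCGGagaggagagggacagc
RefSeq windows, which run from 250 bases before the start to 50 after it, matched 5 of the 7 genes. In each window 3 motifs were searched on both strands. The T-box core AGGTGT was found in 13.7% of all 32851 windows, the GC box GGGCGG in 35.7% and the RBPJ core TGGGAA in 25.6%. The capitals in the Kcnj3 sequence are the T-box core read on the other strand, ACACCT, 38 to 33 bases before the start, and a GC box lay at bases 25 to 30 after it. The Kcnj8 window also held ACACCT, 191 to 186 bases before its start. The Kcnj5 window held 2 GC boxes, 63 to 58 and 22 to 17 bases before the start. Kcnj2 had 2 as well, 102 to 97 and 51 to 46 bases before its start, and the Kcnj12 window matched none of the 3 motifs. The letters TGGGAA were in neither GIRK window, and were at bases 1 to 6 after the start of Kcnj8 and, as TTCCCA, at bases 34 to 39 of Kcnj2. These matches are letters in a window and were not tested for binding.

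The Mib1 reads followed the genotypes. In CPM, the share of a gene in the reads of a library after scaling of library sizes, WT had 136 ± 9.45 (SD, n = 3) and the triple heterozygote 68.7 ± 9.29, while the Cre control had 105 ± 3.51 and the Mib1 mutant 52.2 ± 2.41. Mib1 was lower in the Mib1 mutant than in the Cre control, with a log2 difference of -1.01 (SE 0.09, edgeR adjusted p = 4.75e-05), and in the triple heterozygote than in WT, with -0.99 (SE 0.09, edgeR adjusted p = 0.000276). The labelled tissue was checked against chamber markers. Summed ventricular markers (Myl2, Myl3, Myh7, Irx4 and Hey2) stood at 26190 to 29500 CPM in the Cre control and 23400 to 26690 CPM in the Mib1 mutant. None of the 10 atrial markers was at 0, and the atrial gene Sln was at 0.69 to 7.46 CPM over these 2 genotypes.

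Levels of different genes were compared as CPM per kilobase of exonic sequence. In WT, Kcnj5 was the highest of the 7 at 17.0 ± 0.436 CPM per kb (SD, n = 3), and its pools lay above those of every other gene. Kcnk3 followed at 9.71 CPM per kb and Kcnj2 at 9.04, and the pools of these neighbours overlapped. Kcnj8 came next at 7.90 CPM per kb, with all 3 pools below those of Kcnj2. Kcnj11 at 4.10, Kcnj3 at 4.0 and Kcnj12 at 3.42 CPM per kb formed the low end, and neighbours among them overlapped. In the Mib1 mutant Kcnk3 was the fourth at 6.46 CPM per kb, with pools overlapping those of Kcnj8, and Kcnj3 was the lowest at 1.90 CPM per kb, with pools overlapping those of Kcnj12. Among the 13964 genes tested, Kcnj5 lay at percentile 78.9 of mean CPM over the 12 libraries, not divided by length, and Kcnj12 at 27.7, with the other 5 between them.

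**Figure D1:**
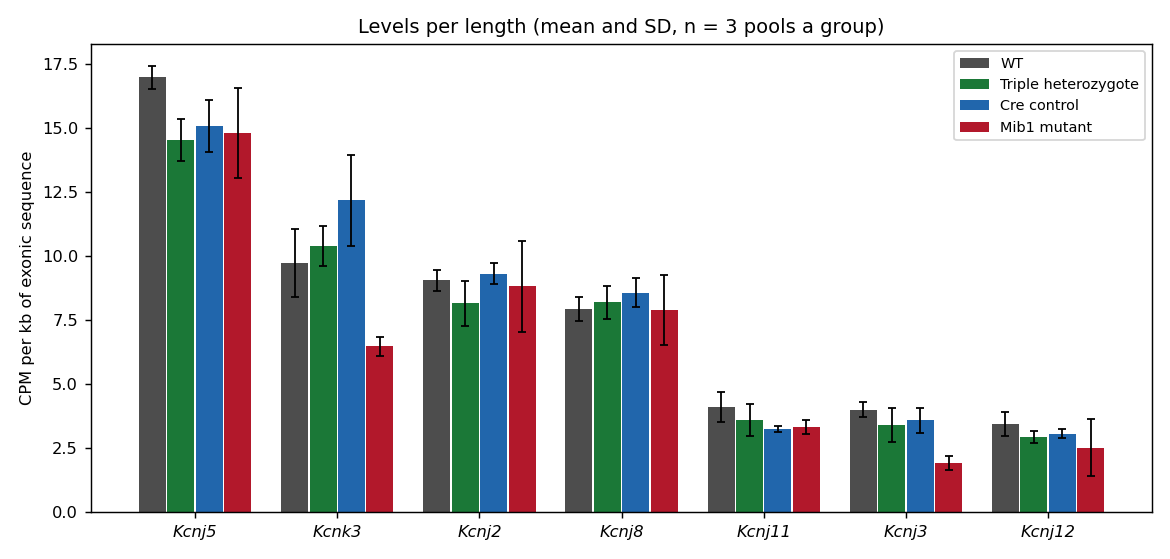
Level per length of each gene as CPM per kilobase of exonic sequence, one bar per genotype, with bars at the mean of 3 pools and error bars of 1 SD. Kcnj5 is the tallest in every genotype, and the Mib1 mutant bars of Kcnk3 (6.46) and Kcnj3 (1.90) stand below the other 3 genotypes of the same gene.

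In the GIRK pair, Kcnj3 was lower in the Mib1 mutant and Kcnj5 did not pass the test. Kcnj3 (ENSMUSG00000026824, chromosome 2, 55435970 to 55598145 on GRCm38, plus strand) encodes GIRK1, which needs a partner subunit to reach the cell surface. Its level in the 3 Mib1 mutant pools was 11.6, 9.23 and 8.96 CPM, against 19.3, 15.8 and 20.8 CPM in the Cre control. WT pools had 22.4, 19.4 and 20.6 CPM, and triple heterozygote pools had 15.2, 16.1 and 21.6 CPM. All 3 mutant pools lay below each of the other 9 pools. Kcnj3 fell by 0.91 on the log2 scale between Cre control and Mib1 mutant, which is 1.88-fold (SE 0.15, edgeR adjusted p = 0.0059). The triple heterozygote and WT pools of Kcnj3 overlapped, with a log2 difference of -0.25 (SE 0.14, edgeR adjusted p = 0.617). The Mib1 mutant effect on Kcnj3 minus the triple heterozygote effect was -0.66 (SE 0.21, edgeR adjusted p = 0.217), so the 2 effects were not shown to differ. The antisense gene Gm26794 overlaps Kcnj3 by 1891 bases and held 2 to 9 reads in a library, against 99 to 356 for Kcnj3.

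Kcnj5 (ENSMUSG00000032034, chromosome 9, 32314707 to 32344350, minus strand) encodes GIRK4, the subunit that carries the heart's GIRK channel to the membrane. Its 3 Mib1 mutant pools had 78.5, 62.8 and 66.5 CPM and its Cre control pools 71.5, 65.4 and 74.9 CPM, so the groups overlapped. The log2 difference was -0.03 (SE 0.09, edgeR adjusted p = 0.925). WT pools stood at 80.0, 77.2 and 81.2 CPM and triple heterozygote pools at 71.3, 63.9 and 68.8 CPM, with every triple heterozygote pool below every WT pool. That difference, -0.23 on the log2 scale (SE 0.09), had an unadjusted p of 0.0179 and an edgeR adjusted p of 0.565 and did not pass. The ratio of Kcnj3 to Kcnj5 per length was 0.236 ± 0.0144 in WT (SD, n = 3), 0.234 ± 0.0455 for the triple heterozygote and 0.236 ± 0.0174 for the Cre control. It was 0.129 ± 0.00644 in the Mib1 mutant, whose pools (0.121 to 0.133) all lay below the lowest of the other 9 (0.192). With 3 pools against 3 an exact permutation test cannot give a two-sided p under 0.1, so the ratio is given as a description.

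**Figure D2:**
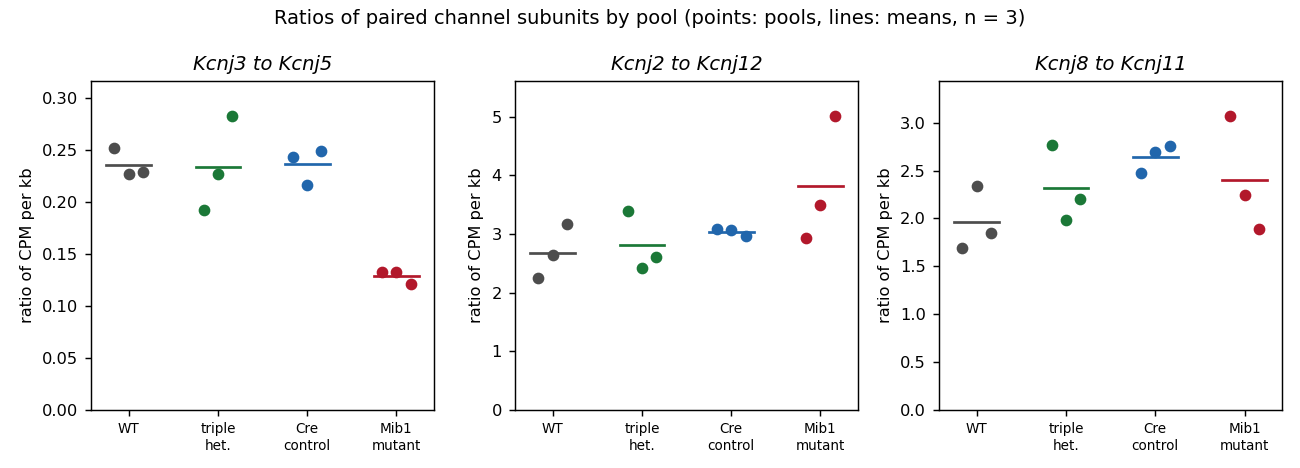
Ratios of level per length within channel families, one point per pool and one bar at each genotype's mean, for the pairs named above each panel. The Kcnj3 to Kcnj5 ratio of the Mib1 mutant pools (0.121 to 0.133) lies below all other pools, while the ratios of the strong inward rectifier and ATP-sensitive pairs overlap between Mib1 mutant and Cre control.

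The strong inward rectifier genes did not pass a test in any comparison. Kcnj2 (ENSMUSG00000041695, chromosome 11, 111066164 to 111076821, plus strand) encodes the main pore subunit of this current in mouse ventricle. Its Mib1 mutant pools had 59.0, 43.8 and 41.0 CPM and its Cre control pools 51.9, 48.0 and 51.9 CPM. The mutant pools thus lay on both sides of the control pools, and the log2 difference was -0.08 (SE 0.12, edgeR adjusted p = 0.83). In WT and the triple heterozygote Kcnj2 averaged 49.2 ± 2.26 and 44.4 ± 4.79 CPM, a log2 difference of -0.16 (SE 0.12, edgeR adjusted p = 0.686). Kcnj12 (ENSMUSG00000042529, chromosome 11, 61022564 to 61071131, plus strand) encodes the second subunit. It had 10.2, 6.34 and 4.14 CPM in the Mib1 mutant pools and 8.50, 7.88 and 8.86 CPM in the Cre control, again with mutant pools on both sides. Its log2 difference was -0.30 (SE 0.23, edgeR adjusted p = 0.626). Kcnj12 had the fewest reads of the 7 genes, 48 to 184 in a library, and the largest SE. Per length, Kcnj2 was 3.04 ± 0.0682 times Kcnj12 in Cre control pools and 3.81 ± 1.08 times in Mib1 mutant pools, with overlapping pools.

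The genes of the ATP-sensitive channel also did not pass. Kcnj8 (ENSMUSG00000030247, chromosome 6, 142564837 to 142571614, minus strand) encodes the pore known from vascular muscle and pericytes. It had 24.0, 18.7 and 17.4 CPM in the Mib1 mutant pools and 20.2, 23.0 and 22.1 CPM in the Cre control, a log2 difference of -0.12 (SE 0.12, edgeR adjusted p = 0.708). Kcnj11 (ENSMUSG00000096146, chromosome 7, 46093953 to 46100764, minus strand) encodes the pore of the ventricular myocyte and the pancreatic beta cell. Its pools had 11.3, 12 and 13.3 CPM in the Mib1 mutant and 11.8, 12.3 and 11.6 CPM in the Cre control, a log2 difference of 0.04 (SE 0.15, edgeR adjusted p = 0.942). Per length, Kcnj8 was above Kcnj11 in all 4 genotypes, 1.96 times in WT and 2.32 times in triple heterozygotes, 2.64 times in the Cre control and 2.40 times for Mib1 mutants.

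Each pore gene lies beside the gene of a sulfonylurea receptor, Kcnj8 at 16.2 kb from Abcc9 and Kcnj11 at 3.76 kb from Abcc8. Of these 2 receptor genes 0 passed in any comparison by edgeR, against 3 to 210 of all 13964 genes, and limma-voom also called 0. DESeq2 called 0 too, with no adjusted p for 1 of them in triple heterozygote minus WT. Abcc9 averaged 292, 242, 258 and 244 CPM in WT, triple heterozygote, Cre control and Mib1 mutant, and Abcc8 averaged 18.5, 14.5, 17.6 and 14.2 CPM. Between Mib1 mutant and Cre control Abcc9 differed by -0.08 on the log2 scale (SE 0.10, edgeR adjusted p = 0.79) and Abcc8 by -0.31 (SE 0.13, edgeR adjusted p = 0.305), the latter with an unadjusted p of 0.0355. In the triple heterozygote both receptor genes had all pools below WT, as did 9.19% of all genes. The log2 differences were -0.27 (SE 0.10) for Abcc9 and -0.34 (SE 0.13) for Abcc8, with an edgeR adjusted p of 0.565 for each. Abcc9 also had every Cre control pool below WT, as did 10.2% of all genes. Its log2 difference there was -0.18 (SE 0.10, edgeR adjusted p = 0.671), while Abcc8 pools overlapped. Per length, Abcc9 was 13.4 to 24.6 times Abcc8 in the Mib1 mutant pools and 13.5 to 15.7 times in the Cre control. With the longest transcript as length these ratios were 9.02 to 16.5 and 9.09 to 10.6.

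Kcnk3 (ENSMUSG00000049265, chromosome 5, 30588170 to 30625271, plus strand), the background channel gene, was lower in the Mib1 mutant. Its 3 mutant pools had 25, 27.3 and 24.7 CPM, against 56.3, 43.0 and 45.8 CPM in the Cre control. WT pools had 34.7, 36.6 and 44.6 CPM and triple heterozygote pools 40.6, 44.7 and 38.6 CPM. All 3 mutant pools lay below each of the other 9 pools. Kcnk3 fell by 0.91 on the log2 scale between Cre control and Mib1 mutant, which is 1.88-fold (SE 0.12, edgeR adjusted p = 0.000641). The triple heterozygote differed from WT by 0.10 (SE 0.11, edgeR adjusted p = 0.791), with overlapping pools. The mutant effect minus the triple heterozygote effect was -1.01 (SE 0.16, edgeR adjusted p = 0.0114), so here the effects differed. Without replicate 1 of every group this difference was -0.83 with an edgeR adjusted p of 0.198, which no longer passed.

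The Cre control had the highest Kcnk3 of the 4 genotypes, at 48.4 ± 7.05 CPM against 38.6 ± 5.29 in WT (SD, n = 3). This log2 difference of 0.32 (SE 0.11) had an unadjusted p of 0.0122 and an edgeR adjusted p of 0.424, and the pools overlapped. The comparison with WT and the comparison with the Mib1 mutant share the Cre control pools. Relative to Kcnj2, which was at a like level per length, Kcnk3 was 1.31 ± 0.156 in Cre control pools and 0.753 ± 0.151 in Mib1 mutant pools, and 1.07 ± 0.130 in WT. The mutant pools (0.580 to 0.854) lay below all others. Kcnk3 counts were not whole in 8 of the 12 libraries, because the counting method divides reads that match several genes, while the other 6 genes had whole counts in all 12. The antisense gene Gm9899 overlaps Kcnk3 by 450 bases and held 0 to 10 reads in a library, against 263 to 990 for Kcnk3.

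**Figure D3:**
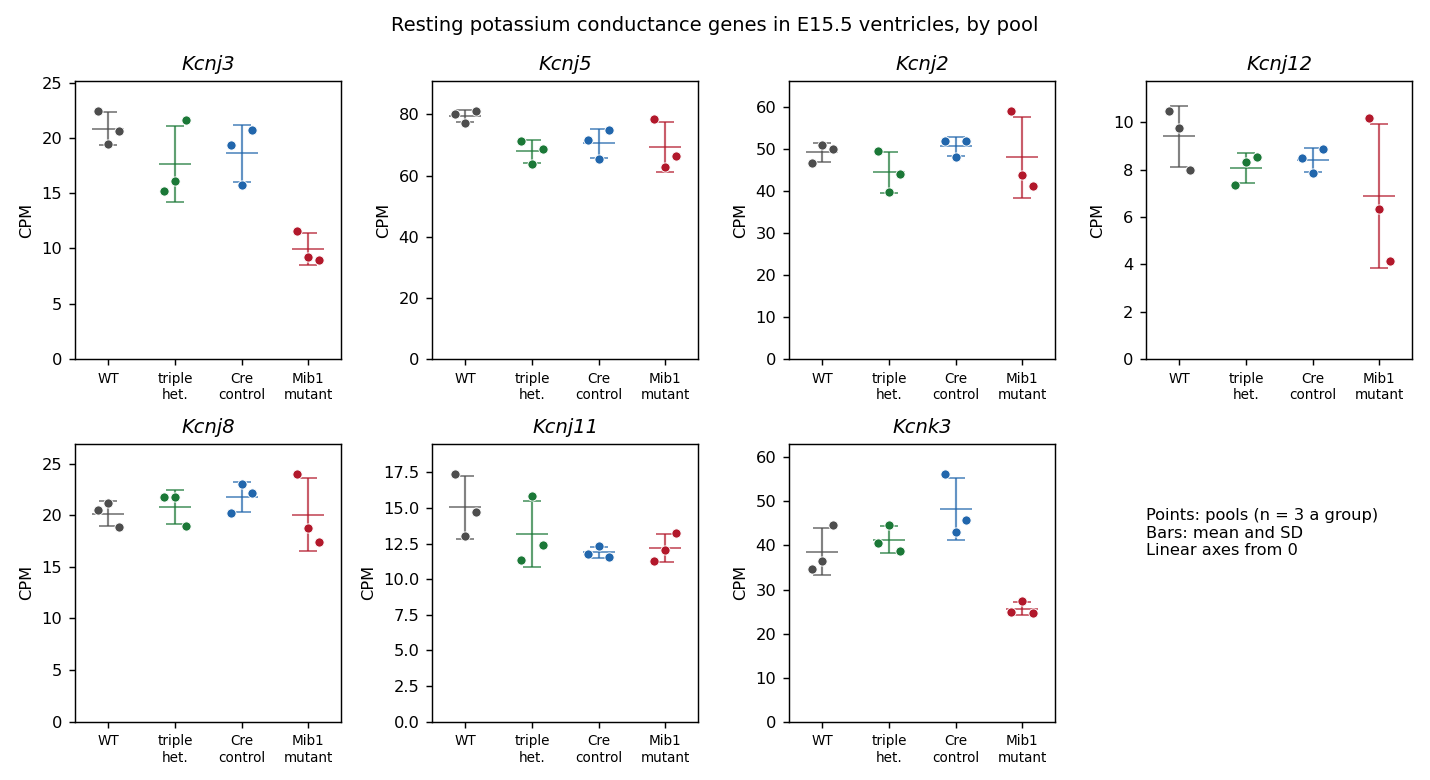
CPM of each gene in all 12 pools, one panel per gene with the 4 genotypes along the axis, points for pools and a bar for the mean. The Mib1 mutant points lie below all others for Kcnj3 (8.96 to 11.6) and Kcnk3 (24.7 to 27.3), and overlap the Cre control for the other 5 genes.

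Over the 7 genes, 2 were lower in the Mib1 mutant than in the Cre control and 0 were higher. Of all 13964 genes tested, 0.594% were called lower and 0.909% higher. The same 2 genes had pools that did not overlap, both lower, against 7.75% of all genes with every mutant pool lower. The median log2 difference of the 7 was -0.12 and that of all genes 0.00, and 6 of the 7 had a negative sign. By p-value Kcnk3 ranked 27 and Kcnj3 ranked 71 of the 13964 genes. In the difference between the effects 1 of the 7, Kcnk3, was called lower, against 0.193% of all genes. The 7 genes were chosen with earlier results of these data known, so these shares are a description and not a test of the set.

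Between the triple heterozygote and WT, edgeR called 0 of the 7 genes, and 0.0215% of all genes. At an unadjusted p under 0.05 there was 1, Kcnj5, against 1209 of all 13964 genes. limma-voom called 0 of the 7, and DESeq2 called 0 of the 2 for which it gave an adjusted p. Kcnj5 was also the only one of the 7 with every triple heterozygote pool lower, against 9.19% of all genes. The largest sizes after Kcnj3 and Kcnj5 were -0.22 for Kcnj12 (SE 0.22), -0.17 for Kcnj11 (SE 0.14) and -0.16 for Kcnj2. Kcnj8, at 0.05 (SE 0.12), and Kcnk3 were the 2 with a positive sign. Between the Cre control and WT, edgeR called 0 of the 7 and 0.279% of all genes. limma-voom and DESeq2 called 0 of the 7. With an unadjusted p under 0.05 there were 2, Kcnk3 and Kcnj11, against 1177 of all 13964 genes. Kcnj11 had 17.4, 13.1 and 14.7 CPM in WT against 11.8, 12.3 and 11.6 CPM in the Cre control, without overlap, a log2 difference of -0.34 (SE 0.14, edgeR adjusted p = 0.54). With Kcnj5 it made 2 of 7 genes with every Cre control pool lower, against 10.2% of all genes.

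**Figure D4:**
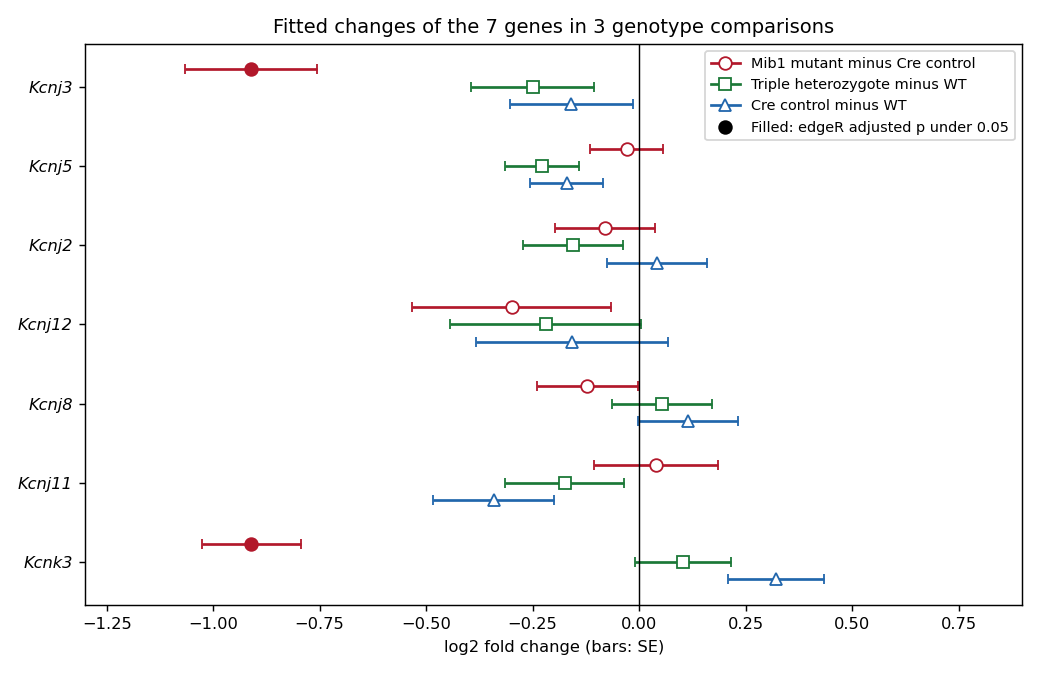
Log2 fold change of each gene with its SE for Cre control minus WT, triple heterozygote minus WT and Mib1 mutant minus Cre control, with filled markers for an edgeR adjusted p under 0.05. Kcnj3 and Kcnk3 (-0.91 each, Mib1 mutant minus Cre control) are the only filled markers.

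In whole ventricles, fewer cells of a type and less RNA per cell cannot be told apart. Single markers of several cell types also differed between Cre control and Mib1 mutant. Summed CPM of the 10 atrial markers was 1877 to 1930 in the Cre control and 1021 to 1768 in the Mib1 mutant. Of these 10, Nppa and Bmp10, which the fetal ventricle also expresses in its trabeculae, were called lower by edgeR and 0 were called higher. The 10 had 4 negative and 6 positive signs, with a median log2 difference of 0.02. The atrial light chain gene Myl7 stood at 153 to 165 CPM in the Cre control and 195 to 315 CPM in the Mib1 mutant, and the ranges of the atrial channel gene Kcna5 overlapped. Summed conduction system markers were 142 to 178 and 95.8 to 116 CPM. Of their 8 genes 6 were tested and 1, the gap junction gene Gja5, was called lower, at 92.6 to 125 and 37.4 to 60.9 CPM. The 6 had 3 negative and 3 positive signs. The positive ones, which did not pass, were Tbx3 at 0.82 (SE 0.26, edgeR adjusted p = 0.143), Irx3 at 0.25 and Shox2 at 0.17 on the log2 scale. The pacemaker gene Isl1 had at most 3 reads in every library.

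The 6 macrophage markers summed to 61.8 to 82.0 CPM in the Cre control and 39.6 to 51.4 CPM in the Mib1 mutant, with Lyz2 and C1qb called lower. Cardiomyocyte markers summed to 10100 to 11330 and 8371 to 10660 CPM, fibroblast markers to 3403 to 3479 and 3743 to 4608 CPM, and endothelial markers to 851 to 964 and 886 to 1054 CPM. Beside Kcnj8, pericyte markers summed to 357 to 360 and 352 to 410 CPM, with 6 of 7 tested and 0 called by edgeR. Smooth muscle markers summed to 1317 to 1409 CPM in Cre control pools and 1185 to 1971 CPM in Mib1 mutant pools. Of their 5 genes 4 were tested and 1, the actin-binding protein gene Tagln, was called higher by edgeR, DESeq2 and limma-voom (log2 difference 1.37, SE 0.15, edgeR adjusted p = 0.000179). DESeq2 also called Cnn1, which was at 0.47 by edgeR (adjusted p = 0.0657), and the smooth muscle myosin gene Myh11 was at -1.37 (SE 0.44, edgeR adjusted p = 0.153). The part of these cell types in the values of Kcnj3, Kcnk3 and Kcnj8 was not tested. Mib1 mutant replicate 1 had the highest level of the mutant pools for 5 of the 7 genes, Kcnj2, Kcnj3, Kcnj5, Kcnj8 and Kcnj12. Without it the Kcnj3 and Kcnk3 calls held.

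Genes that act on the GIRK channel gave 0 calls by edgeR in any comparison, against 3 to 210 of all 13964 genes. All 11 were tested: the receptors Chrm2 and Adora1, the G protein subunits Gnai1, Gnai2, Gnai3, Gnao1, Gnb1, Gnb2 and Gnb5, and the regulators Rgs4 and Rgs6. Between Mib1 mutant and Cre control 3 had an unadjusted p under 0.05, against 1954 of all 13964 genes. There limma-voom and DESeq2 called 0 of the 11, and the median log2 difference of the 11 was -0.02. The 4 with the highest level were Gnai2 at -0.06, Gnb1 at 0.07, Gnb2 at -0.04 and Gnai3 at 0.15 on the log2 scale. Chrm2, the muscarinic receptor that opens the channel, and Adora1, the adenosine receptor that does so, were chosen for their role after their values were seen. Chrm2 averaged 62.9 ± 5.62, 48.7 ± 3.99, 51.1 ± 1.48 and 41.8 ± 3.54 CPM in WT, triple heterozygote, Cre control and Mib1 mutant (SD, n = 3). Its log2 difference was -0.29 in the Mib1 mutant (SE 0.09, edgeR adjusted p = 0.137) and -0.37 in the triple heterozygote (SE 0.09, edgeR adjusted p = 0.341), each with every pool lower. DESeq2 called the second of these (adjusted p = 0.0467), 1 of the 6 genes it gave an adjusted p in that comparison. Over all genes it called 34 of 5020 there. Adora1 differed by -0.02 in the Mib1 mutant (edgeR adjusted p = 0.968). In the triple heterozygote it differed by -0.29 (SE 0.10, edgeR adjusted p = 0.56), with every pool lower. Between Cre control and WT, Chrm2 was at -0.30 (SE 0.09, edgeR adjusted p = 0.303) with every pool lower. Adora1 was at -0.31 there (SE 0.10, edgeR adjusted p = 0.388) with overlapping pools.

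The partner proteins listed here anchor the strong inward rectifier or tandem-pore channels, affect their transport to the membrane or bind them in other ways. Of these genes 12 were tested, and edgeR called 0 in any comparison, against 3 to 210 of all 13964 genes. Between Mib1 mutant and Cre control 2 had an unadjusted p under 0.05, against 1954 of all 13964 genes. The median log2 difference of the 12 there was 0.02. The 4 with the highest level were Ywhaz at 0.11 and Ywhab at -0.05, 14-3-3 proteins that bind TASK-1, Popdc2 at -0.13 (SE 0.07), and the muscle caveolin Cav3 at -0.34 (SE 0.10, edgeR adjusted p = 0.116). Cav3 stood at 79.0 ± 6.18 CPM in Cre control pools and 62.2 ± 8.03 CPM in Mib1 mutant pools (SD, n = 3), without overlap. DESeq2 called 2 of the 12, Cav3 (adjusted p = 0.0474) and Flna (adjusted p = 0.0238), the latter chosen after its values were seen, and limma-voom called 0. Over all genes DESeq2 called 398 of the 13677 with an adjusted p in that comparison. Flna, an actin crosslinking protein that binds Kcnj2 channels, was 429 ± 29.9 CPM in Cre control pools and 538 ± 32.6 CPM in Mib1 mutant pools, a log2 difference of 0.33 (SE 0.09, edgeR adjusted p = 0.102).

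**Figure D5:**
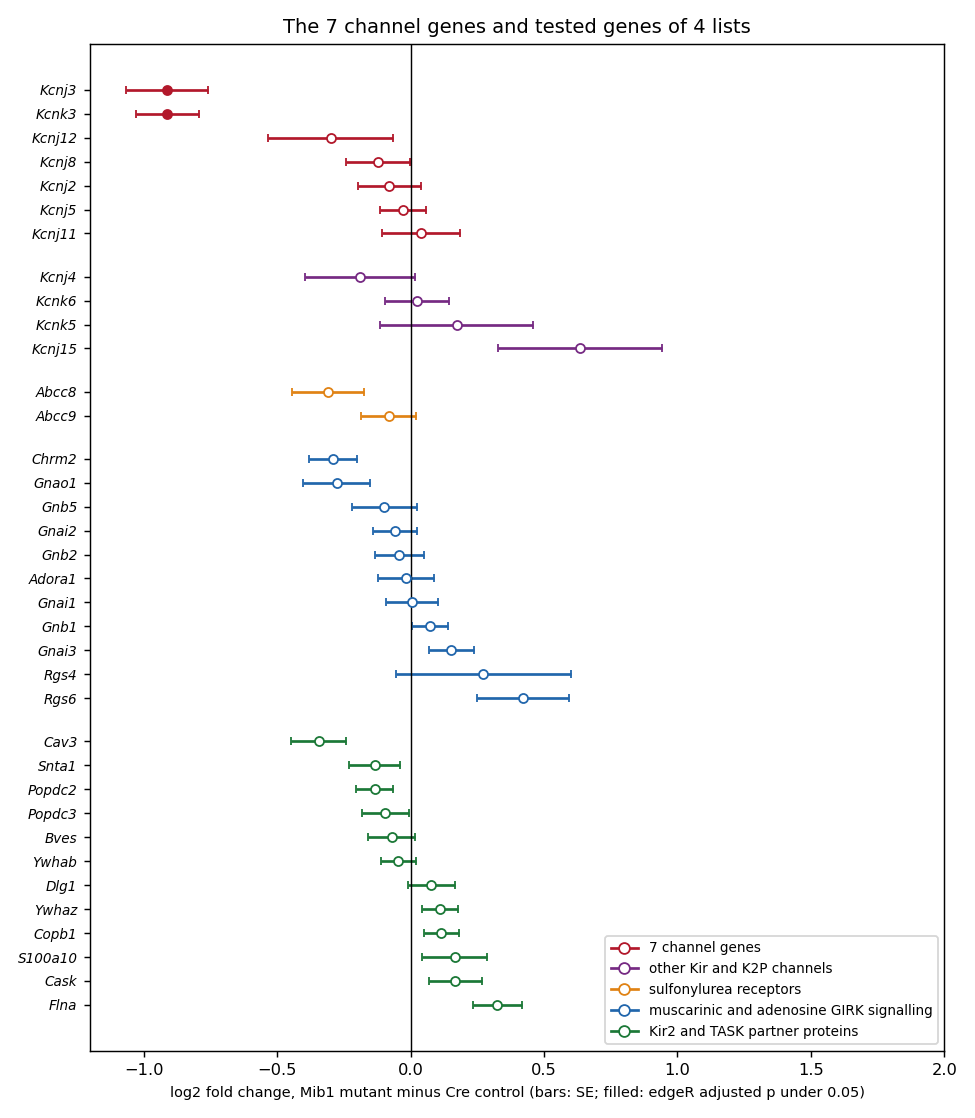
Log2 fold change with SE of the 7 channel genes and of the sulfonylurea receptors, GIRK signalling genes, channel partner proteins and other tested channel genes in Mib1 mutant minus Cre control. Beside Kcnj3 and Kcnk3, which are drawn again, none passed by edgeR, and Cav3 (-0.34) and Flna (0.33) were the 2 partner genes with an unadjusted p under 0.05.

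Most other members of these channel families were scarcely read. Of 22 further inward rectifier and tandem-pore genes, 8 had 0 reads in all libraries, which allows up to 0.297 CPM in the smallest library and 0.135 CPM in the largest on counting error alone (3 reads). A further 5 had at most 3 reads in any library, 5 had more but were too low to test, and 4 were tested. Between Mib1 mutant and Cre control 0 of the 4 passed by edgeR, limma-voom or DESeq2. Of all 13964 genes, edgeR called 210 there. The 4 had 0 at an unadjusted p under 0.05, against 1954 of all genes, and their median was 0.10. These were Kcnj4 at -0.19 (SE 0.21), Kcnk6 at 0.02 (SE 0.12), Kcnk5 at 0.17 (SE 0.29) and Kcnj15 at 0.64 (SE 0.31, edgeR adjusted p = 0.375) on the log2 scale. Kcnj15, an epithelial inward rectifier, averaged 2.96 ± 0.978 CPM in Cre control pools and 4.68 ± 1.68 CPM in Mib1 mutant pools, with overlapping pools.

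For the 2 genes that passed, the genes with the most similar profile over the 12 libraries were sought among 11546 named protein-coding genes with a mean of at least 2 CPM. Likeness was the root mean square difference of log2 CPM after each gene was centred on its own mean, so a smaller value is closer. Among the closest to Kcnj3 were Slit2, a secreted guidance protein, at 0.179 and Cd300lg, an endothelial surface protein, at 0.181. Their means in Cre control and Mib1 mutant were 108 and 70.7 CPM, and 14.6 and 6.84 CPM. Closest to Kcnk3 were Irx2, a homeobox factor, at 0.163, Nrbp2, a pseudokinase, at 0.176 and Phf24 at 0.189. Their means in Cre control and Mib1 mutant were 25.9 and 15.9 CPM, 21.5 and 11.4 CPM, and 13.9 and 7.76 CPM. Kcnk3 ranked 70 among the genes closest to Kcnj3, with a root mean square difference of 0.294, and Kcnj3 ranked 517 among those closest to Kcnk3. These genes were picked for their likeness over the same libraries, so their differences are given without a test.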

How the data were processed

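Strand-specific polyA libraries of ventricles were read as single 60-base reads, per the labels' protocols. GRCm38, RSEM, cutadapt, limma and bcl2fastq 2.20.0.422 appear in the submitters' processing notes; no source used here names the aligner, annotation release or strand setting. Values are expected counts per gene from RSEM as the authors deposited them, unscaled, and 9.64% were not whole. Columns were matched to titles by name. The columns called mutant were given to the triple heterozygote because their names hold neither flox nor Cre, which is an inference; 0 columns were left out. Symbols, coordinates and exon lengths came from GENCODE M21 for 36429 of 38293 identifiers.

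After rounding, counts went through edgeR 4.0.16 under R 4.3.3 (two-sided quasi-likelihood F test, TMM scaling, filterByExpr). The 4 groups were fitted together over all 12 libraries (8 residual degrees of freedom, common biological variation 0.0982); 13964 genes holding 99.9% of counts were tested. Adjusted p-values are Benjamini-Hochberg over all of them, with a threshold of 0.05. The SE is the log2 fold change over the square root of F. Exonic length is the union of a gene's exons. Alternatives were other scaling, filters, DESeq2 1.42.0, limma-voom (limma 3.58.1), only the libraries compared, a sex covariate, a replicate block and libraries left out. The test was run on simulated counts with known changes. Of 18 same-numbered pairs of pools, 4 had a correlation over 0.1. These correlations ran from -0.089 to 0.166, and those of other pairs from -0.21 to 0.161. This does not settle whether replicate numbers pair samples, and the main fit used no replicate block.

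The 7 genes and all lists were chosen with earlier results of these data known. Named are the 7 genes, Mib1, the called genes and the 4 highest by level of each list, and the 3 genes most like a passing gene, with log2 CPM at a prior count of 2; 1 of these genes is not reported here. Whether pools shared litters is not stated, so p-values measure the spread between pools, which may be partly technical. Chi-square per degree of freedom between pools of a genotype was 2.07 to 14.1, more than counting noise gives.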

Additional observations from a re-analysis of the deposited data

Results flagged for a closer look

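The Kcnk3 effect in the Mib1 mutant differed from that in the triple heterozygote by a test of the difference itself. Mib1 mutant minus Cre control, less triple heterozygote minus WT, was -1.01 on the log2 scale (SE 0.16, edgeR adjusted p = 0.0114). The component effects were -0.91 with every mutant pool lower than every control pool, and 0.10 with overlapping pools. The difference between effects did not pass without replicate 1 of every group (-0.83, edgeR adjusted p = 0.198).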

How the results depend on the processing

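The falls of Kcnj3 and Kcnk3 in the Mib1 mutant passed in all 22 alternatives, with log2 values of -1.04 to -0.82 (adjusted p 2.45e-05 to 0.0439) and -0.99 to -0.78 (adjusted p 1.89e-09 to 0.0269). The Kcnk3 difference between effects passed in 20 of 21; without replicate 1 of every group it was -0.83 and the 7 genes gave 0 calls there, with 8 of 12 libraries remaining. That setting gave Mib1 in triple heterozygotes a log2 difference of -0.99 (edgeR adjusted p = 0.0503) and turned the sign of Kcnj2 in Cre control minus WT (-0.0086), Kcnj11 in triple heterozygote minus WT (0.049), and Kcnk6 (-0.0066) and Ywhab (0.029) in the Mib1 mutant. Leaving out 1 library turned the sign of small effects. In the Mib1 mutant these ranged from -0.26 to 0.0185 for Kcnj2, -0.14 to 0.036 for Kcnj5, -0.029 to 0.084 for Kcnj11, -0.022 to 0.090 for Kcnk6, -0.0285 to 0.48 for Kcnk5, -0.25 to 0.034 for Abcc9, -0.11 to 0.0004 for Gnai2, -0.089 to 0.031 for Gnb2, -0.084 to 0.008 for Ywhab and -0.093 to 0.082 for Adora1. In the difference between effects they ranged from -0.12 to 0.16 for Kcnj2 and -0.49 to 0.17 for Kcnj12. Kcnj12 in the Mib1 mutant ranged from -0.70 to -0.03. With the longest transcript as length, Kcnj11 was 4.79, 3.78 and 3.88 CPM per kb in WT, Cre control and Mib1 mutant, and Kcnj12 was 3.27 and 3.42 in the triple heterozygote and Cre control. The cause of these changes was not tested.

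With the replicate number as a block, Kcnj3 was -0.91 (edgeR adjusted p = 0.00462), Kcnk3 -0.91 (0.00139) and its difference -1.01 (0.0159), and of the genes named Cav3 alone gained a call (-0.35, adjusted p = 0.0239). Over the 22 alternatives, Cav3 and Flna each passed in 3 for the Mib1 mutant, DESeq2 among them. With 1 library left out, the lowest edgeR adjusted p of Flna was 0.0415. In the pairing check 6 of 12 libraries correlated best with their own number. Calls over all genes depended on the setting. In the Mib1 mutant they numbered 210, against 318 with the block, 93 with only the compared libraries, 476 with no filter, 398 with DESeq2, 75 without replicate 1 of every group, and 116 (without Cre control replicate 3) to 415 (without Mib1 mutant replicate 2). In the difference they numbered 72, against 109 with the block, 246 with no filter, 162 with DESeq2, 6 (without replicate 1 of every group), and 28 (without triple heterozygote replicate 2) to 233 (without Mib1 mutant replicate 2). For the triple heterozygote the count was 3 against 0 to 54 and for Cre control minus WT 39 against 23 to 144. The difference needs all 12 libraries, so it has no value from the compared libraries alone.

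In simulated counts the test recovered 65% of log2 changes of 0.5 in Mib1 mutant minus Cre control (13818 genes), 46% in triple heterozygote minus WT (13826), 53% in Cre control minus WT (13804) and 19% in the difference (13814), and 94%, 86%, 91% and 70% of log2 changes of 1.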

Other observations

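Summed over the 7 genes, the level per length was 55.1 ± 0.915 CPM per kb in WT (SD, n = 3) and 51.1 ± 0.613 for the triple heterozygote. It was 54.9 ± 2.69 in Cre control pools and 45.7 ± 5.81 in Mib1 mutant pools, where the pools spread from 41.6 to 52.3. The Cre control pools began at 51.9, so the groups overlapped. As a share of that sum, Kcnk3 was 22.1% in Cre control pools and 14.3% in Mib1 mutant pools, and Kcnj3 was 6.48% and 4.17%. Kcnj5 held 27.4% and 32.4%, and Kcnj2 held 16.9% and 19.2%. Shares of 1 sum are not independent of each other.

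X-linked Xist was at 0.387 CPM in Cre control replicate 1 and 0.095 CPM in Mib1 mutant replicate 1, and reached 458 and 418 CPM in other pools of those genotypes. The calls of Kcnj3 and Kcnk3 held with a sex covariate.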
